A study of Mus musculus with 4 samples.

Results

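The genes described here are *Hif1a*, which encodes the oxygen-regulated subunit of hypoxia-inducible factor 1, and 9 genes of glucose uptake and glycolysis: *Slc2a1*, *Hk1*, *Hk2*, *Pfkfb3*, *Pfkl*, *Aldoa*, *Pgam1*, *Pkm* and *Ldha*. They were taken by name for their role in the pathway, 10 of 17492 protein-coding genes with an annotated start site. Open chromatin had been mapped by ATAC-seq, in which a transposase cuts accessible DNA and tags it for sequencing, in RAW264.7 cells, a wild-type mouse macrophage line. All cells received dye-labelled oxidized low-density lipoprotein (DIL-oxLDL) at 25 ug/mL for 24 h. The control group received the solvent DMSO (n = 2 libraries) and the esculetin group received 40 ug/mL esculetin, a plant coumarin (n = 2). There were no cells without oxLDL, so every difference below is esculetin against DMSO in lipid-loaded cells. No source names separate cultures for the libraries of a group, so any p-value measures the spread between these libraries, which may be technical.

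HIF1A pairs with ARNT and binds a short core, ACGTG or GCGTG, at genes that carry glucose into the cell and turn it into lactate. Activated macrophages are known to draw on this pathway, with HIF1A kept from degradation even in normal oxygen. Glucose enters through GLUT1, hexokinase traps it, phosphofructokinase and aldolase prepare and split it, and phosphoglycerate mutase, pyruvate kinase and lactate dehydrogenase act on the later steps to lactate.

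For each gene, the peaks of the authors' 4 peak lists were read from 10 kb before its 5′ end to its 3′ end, and a promoter peak was one with its summit no more than 1 kb from an annotated start site. Of the 4 promoters below, *Ldha* is shown as the one that ranked lower in both esculetin libraries, *Pgam1* as the one that passed the test of summit coverage, *Hif1a* as the gene of the regulator, and *Pkm* as the one without a HIF core in this run. Each is the run of 250 bases before the start site, written 5′ to 3′ along the gene, from RefSeq on GRCm38.p6, the assembly that mm10 corresponds to. Capitals mark ACGTG or GCGTG on either strand (CACGT and CACGC when read from the other strand), and CACGTG reads the same on both strands. The runs lie at chr7:46845554-46845803, chr19:41911621-41911870, chr12:73907617-73907866 and chr9:59656326-59656575, all on the plus strand.
Ldha: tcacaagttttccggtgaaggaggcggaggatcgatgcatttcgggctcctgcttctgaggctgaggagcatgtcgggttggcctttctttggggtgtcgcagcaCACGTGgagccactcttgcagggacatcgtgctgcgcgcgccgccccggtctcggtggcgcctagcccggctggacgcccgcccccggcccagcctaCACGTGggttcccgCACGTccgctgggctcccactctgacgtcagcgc
Pgam1: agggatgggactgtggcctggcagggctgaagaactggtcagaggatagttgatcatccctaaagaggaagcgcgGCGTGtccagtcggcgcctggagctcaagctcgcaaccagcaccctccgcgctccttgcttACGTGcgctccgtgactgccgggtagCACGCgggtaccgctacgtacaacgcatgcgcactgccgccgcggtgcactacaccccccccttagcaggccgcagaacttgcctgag
Hif1a: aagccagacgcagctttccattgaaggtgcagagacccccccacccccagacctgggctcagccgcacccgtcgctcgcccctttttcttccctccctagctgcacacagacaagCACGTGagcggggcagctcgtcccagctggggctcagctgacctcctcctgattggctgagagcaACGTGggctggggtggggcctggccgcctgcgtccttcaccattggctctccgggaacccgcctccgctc
Pkm: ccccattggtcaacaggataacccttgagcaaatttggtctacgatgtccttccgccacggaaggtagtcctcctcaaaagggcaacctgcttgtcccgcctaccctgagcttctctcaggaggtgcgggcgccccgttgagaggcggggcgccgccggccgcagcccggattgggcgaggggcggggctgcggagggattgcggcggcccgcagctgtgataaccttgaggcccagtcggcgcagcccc

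The *Ldha* promoter held 3 separate core stretches, 2 of them the palindrome CACGTG, with first bases at -145, -48 and -34 from the start site. The *Pgam1* promoter also held 3, at -175, -114 and -88, and the *Hif1a* promoter held 2, at -135 and -70, the first a palindrome. Among the 10 promoters, taken at the start site nearest the open region, 7 held ACGTG, 5 held GCGTG and 9 held either, all but *Pkm*. A second *Pkm* start site, 59657227, also within 1 kb of the promoter peak in all 4 libraries, had an ACGTG core at -75. Over 21263 promoters of coding genes in runs of the same length the shares were 17.8% for ACGTG, 33.8% for GCGTG and 44.0% for either. Those promoters were taken open or not, with a median of 55.6% G or C. The runs of the 10 genes lay by open regions and held 59.2% to 69.6%, so the shares are not like for like. A match is a description of the letters, not a bound site. The genes were chosen for their place in a HIF-regulated pathway, so a high share is no independent finding.

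All 10 genes had a promoter peak in all 4 libraries, against 28.0% of coding genes. Between the groups, the percentile of the promoter peak separated for some of these genes and overlapped for the others. More peaks were called elsewhere in the genes in the controls, whose lists were longer. On chromosomes 1 to 19, X and Y the control lists held 19475 (replicate 1) and 27731 (replicate 2) peaks, and the esculetin lists 8581 (replicate 1) and 12680 (replicate 2). Depth, as the background coverage solved from the lists, was 6.51, 4.08, 4.97 and 4.10 in the same order. Of 9 macrophage marker genes, *Spi1*, the lineage-defining transcription factor, had a promoter peak in all 4 libraries, and *Adgre1* and *Itgam* had one in none. The number of macrophage markers with a promoter peak was 6 and 6 in the controls and 1 and 3 with esculetin, and *Csf1r*, *Ptprc* and *Fcgr1* were called in the controls only. Of regions in the windows of all coding genes, 12.4% were called in both controls only. Over all coding genes the share with a promoter peak was 42.1%, 43.3%, 31.3% and 39.2% in the order of the libraries above. Of 8 kidney epithelium markers, 1 had a promoter peak in control replicate 1 and 0 in the others. Of 4 fibroblast markers, 1 had a promoter peak in control replicate 2, the longest list, and 0 in the others. Their part in the results was not tested.

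The windows of the 10 genes held 23 and 39 peaks in the controls, against 12 and 17 with esculetin. The groups did not overlap, at 31.0 ± 11.3 against 14.5 ± 3.54 (SD, n = 2; two-sided exact permutation test, p = 0.33, the smallest p that 2 libraries against 2 allow). The peaks of these windows made up 0.118%, 0.141%, 0.140% and 0.134% of their lists, a difference between group means of 0.0076 percentage points (exact permutation p = 1.0). The lower number with esculetin thus went with the shorter lists. At the promoters the lists held 12, 14, 10 and 13 peaks. Upstream they held 5 and 5 in the controls and 0 and 1 with esculetin, which was 21.7%, 12.8%, 0% and 5.88% of the window peaks. Over all coding genes 15.1%, 15.5%, 14.1% and 14.6% of window peaks were upstream. With each list reduced to its strongest 8581 peaks, the share upstream of these genes was 0%, 6.67%, 0% and 0%, so little of the difference between the groups was left. Inside the genes the lists held 6 and 20 peaks in the controls and 2 and 3 with esculetin. Most of the excess inside the genes lay in control replicate 2, where 51.3% of the window peaks were inside, against 26.1% in control replicate 1 and 16.7% and 17.6% with esculetin. Over all coding genes the shares inside were 28.9%, 43.9%, 11.4% and 17.1%, also highest in control replicate 2 and lower in both esculetin libraries than in both controls. In the lists of 8581 peaks the shares inside were 22.2%, 46.7%, 16.7% and 7.69% for these genes. For all coding genes they were 17.0%, 36.5%, 11.4% and 9.86%, so the inside share stayed lower with esculetin in both sets.

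**Figure D1:**
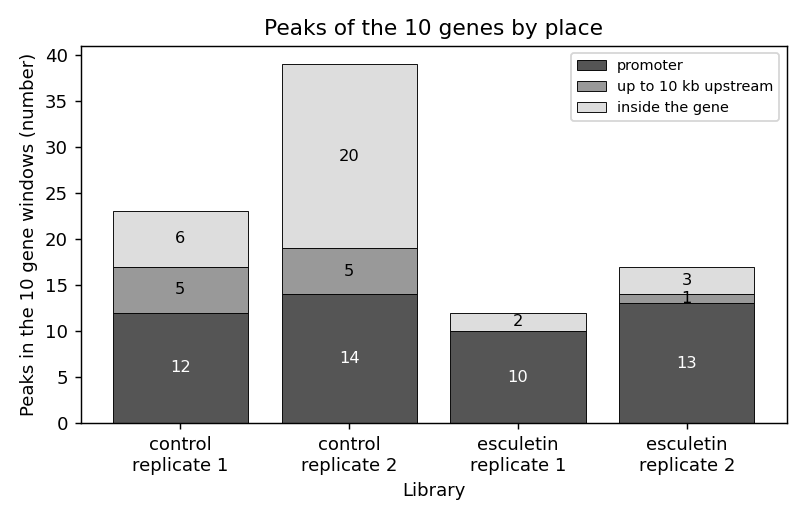
Number of peaks in the windows of the 10 genes in each library (bars, from 0), split into promoter peaks, peaks up to 10 kb upstream and peaks inside the gene. Promoter peaks number 10 to 14 in every library, while inside peaks run from 2 in esculetin replicate 1 to 20 in control replicate 2.

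The strength of each promoter was read as the percentile of its strongest promoter peak within its own list, by −log10 p, where 100 is the top of the list. A percentile moves with the length of the list, so the order by rank (1 at the top) is given as well. The median percentile over the 10 genes was 77.6 and 75.7 in the controls and 74.6 and 81.3 with esculetin, a difference of 1.32 between group means (exact permutation p = 1.0). Over all coding genes with a promoter peak in every library the medians were 80.4, 75.1, 63.8 and 76.6. In 4 genes, *Hif1a*, *Aldoa*, *Pgam1* and *Pkm*, both esculetin libraries lay above both controls, which was so for 15.0% of the coding genes compared. *Ldha* alone had both esculetin libraries below both controls, against 29.8% of coding genes. The other 5 genes overlapped between the groups. By rank, *Pfkl* joined the 4 genes that were stronger with esculetin, an order found for 49.9% of coding genes. *Ldha* was weaker with esculetin by rank as well, which was so for 4.32% of coding genes.

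**Figure D2:**
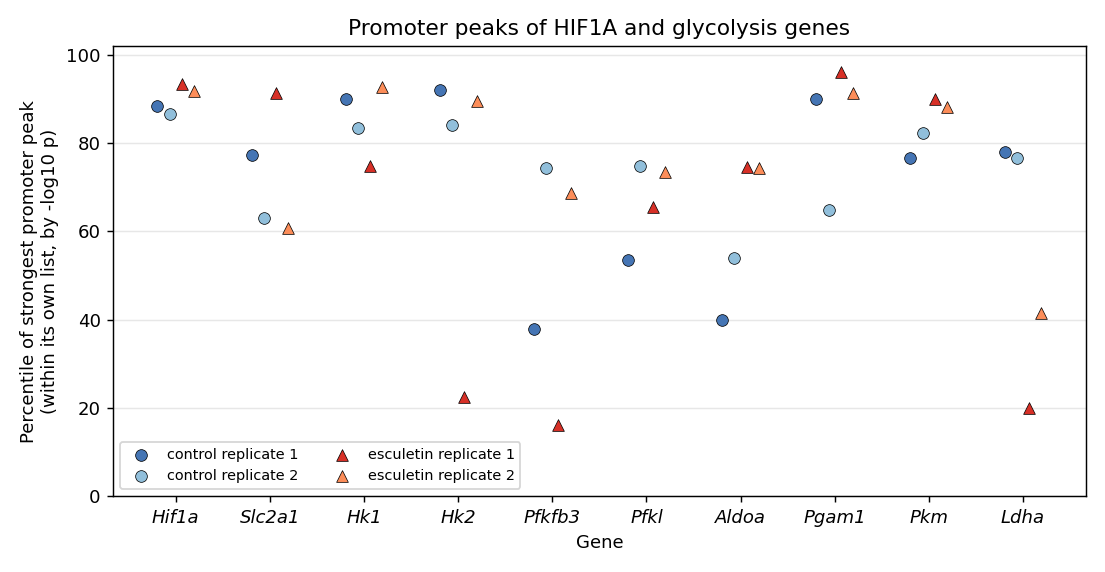
Percentile of the strongest promoter peak of each gene within its own peak list (y axis, by −log10 p, 0 to 100), with circles for the 2 control libraries and triangles for the 2 esculetin libraries. Both triangles lie above both circles for *Hif1a*, *Aldoa*, *Pgam1* and *Pkm*, and below both for *Ldha*, where the controls are at 78.0 and 76.6 and the esculetin libraries at 19.9 and 41.5.

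To compare the same promoter between libraries on a scale that does not depend on list length, the number of reads stacked at each summit (summit coverage) was solved from the fold and p of each peak. It was set on a log2 scale against the median of the regions called in all 4 libraries and tested with limma over all 6181 such regions. Below, summit coverages are reads not scaled for depth, while the log2 differences are scaled in this way. *Pgam1* was the only one of the 10 that passed (adjusted p = 0.036). Over all regions, 3.92% were higher and 2.94% lower with esculetin, so 1 of 10 is not a result about the list. On this scale 7 promoters had values above 0 and 3 below, with a median of 0.26, against 3183 and 2998 of all regions and a median of 0.016. In bulk chromatin, a change in the share of cells that are open and a change in how open each cell is cannot be told apart.

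**Figure D3:**
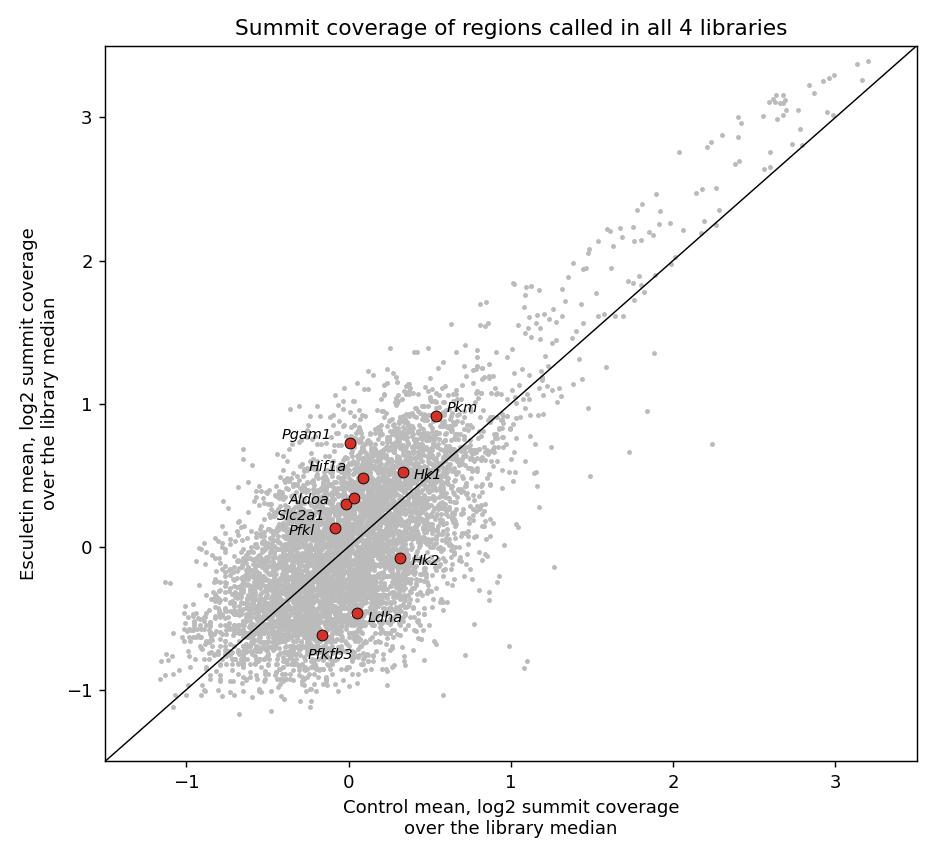
Summit coverage of each region called in all 4 libraries, as log2 over the library's own median, averaged over the 2 control libraries (x axis) and the 2 esculetin libraries (y axis). Grey points are the 6181 regions, red points the promoter regions of the 10 genes, and the line marks equal values. *Pgam1* lies above the line at a difference of 0.72, and *Ldha* lies below it at -0.51.

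*Hif1a* (gene ID 15251, chr12:73901324-73947554, plus strand) was open at an internal start site, position 73907867, and not at its 5′ end. The promoter peak stood at percentile 88.5 and 86.7 in the controls and 93.5 and 91.9 with esculetin (87.6 ± 1.28 against 92.7 ± 1.13, SD, n = 2). The esculetin values lay above the controls by more than the spread within either group. Summit coverage was 46 and 44 in the controls and 55 and 51 with esculetin, each with an exact Poisson 95% interval that overlapped the others, from 32.0 to 59.1 for the lowest to 41.4 to 71.6 for the highest. These intervals cover counting error only. The log2 difference was 0.39 ± 0.22 (SE; limma adjusted p = 0.27), which did not pass. Beyond the promoter, the *Hif1a* window held 5 peaks in control replicate 2 and none in the other libraries. They lay at 31066, 38289, 39219, 44318 and 44926 bp from the 5′ end, the last at 97.2% of the gene's length, with percentiles from 38.7 to 76.1. The lncRNA gene *Gm15283*, at 73934724 to 73952439, overlaps all of them but the first.

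*Slc2a1* (gene ID 20525, chr4:119108745-119137330, plus strand) encodes GLUT1, the main carrier of glucose into activated macrophages. Its promoter peak, by the single annotated start site, stood at 77.2 and 62.9 in the controls and 91.3 and 60.7 with esculetin. Its summit lay at -3 and -79 in the controls and at -15 in esculetin replicate 1. In esculetin replicate 2 it lay 474 bp downstream, in a peak 907 bp wide, so that value was read at another place. Control replicate 2 had a separate peak 500 bp downstream, at percentile 14.1. Esculetin replicate 1 was the highest of the 4 libraries and esculetin replicate 2 the lowest, so the groups overlapped. The coverage difference was 0.32 ± 0.24 (SE; limma adjusted p = 0.45), and without esculetin replicate 1 it was -0.095. Without esculetin replicate 2 it was 0.73 and passed (limma adjusted p = 0.042), so each direction rested on 1 library. A lncRNA gene, *Gm52706*, starts just past this site, at 119108749, and runs the other way, so its own promoter cannot be told from that of *Slc2a1* here. A second region, at chr4:119105776-119106064, was called in both controls and in esculetin replicate 2, at percentiles 52.4, 38.4 and 12.1.

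The hexokinases phosphorylate glucose on entry and keep it in the cell. *Hk1* (gene ID 15275, chr10:62268855-62379920, minus strand) had no promoter peak at its 5′ end, and its promoter peak lay 142 to 198 bp downstream of an internal start site at 62340421. The antisense lncRNA gene *Hk1os* begins beside it, at 62340234, and shares this open region. Its percentiles were 90.0 and 83.5 in the controls and 74.8 and 92.7 with esculetin, which overlapped, and the coverage difference was 0.19 ± 0.21 (SE; limma adjusted p = 0.63), from 0.051 to 0.32 with 1 esculetin library left out, 0.047 with cyclic loess and 0.10 with quantile scaling. A peak inside the gene, 14071 bp from the 5′ end, was among the strongest of control replicate 2, at percentile 96.4 with a summit coverage of 65. The same region was called in esculetin replicate 1 at percentile 40.1 and coverage 27, and in neither of the other libraries.

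*Hk2* (gene ID 15277, chr6:82725025-82774454, minus strand), the inducible hexokinase, was open just upstream of its start site in every library, with summits from -125 to -54. Its percentiles were 92.0 and 84.2 in the controls and 22.5 and 89.5 with esculetin. Esculetin replicate 1 stood far below the other 3 libraries, and esculetin replicate 2 lay between the controls. Summit coverage was 57, 49, 28 and 46, and the coverage difference was -0.40 ± 0.23 (SE; limma adjusted p = 0.30), which came to -0.12 without esculetin replicate 1, and to -0.68 when the other esculetin library was left out. Further into *Hk2*, regions at chr6:82773286-82773885 and chr6:82763923-82764521 were called in both controls and in neither esculetin library. Their percentiles in the controls ran from 23.4 to 66.5.

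*Pfkfb3* (gene ID 170768, chr2:11471430-11554071, minus strand) makes fructose 2,6-bisphosphate, the activator of phosphofructokinase. It was open at an internal start site, 11502090, in all 4 libraries, though in esculetin replicate 1 the only summit there lay 670 bp downstream. The lncRNA gene *Gm52500* begins beside this site, at 11502010, in the same open region, so its own promoter cannot be told from this one. The start site at 11553929 was called in control replicate 2, at percentile 42.4, and in esculetin replicate 2, at 68.7. The strongest promoter peak stood at 37.9 and 74.4 in the controls and 16.1 and 68.7 with esculetin, and that of esculetin replicate 2 was the one at 11553929. At the internal start region the coverage difference was -0.46 ± 0.26 (SE; limma adjusted p = 0.29), from -0.73 without control replicate 1 to -0.18 without control replicate 2. Inside *Pfkfb3*, 18431 to 18540 bp from the 5′ end, lay the one region away from a promoter that all 4 libraries shared among the 10 genes, at chr2:11535443-11535915. Its percentiles were 85.7 and 81.6 in the controls and 16.1 and 55.4 with esculetin, so both esculetin libraries lay below both controls. Summit coverage there was 45, 39, 21 and 27, and the log2 difference was -0.66 ± 0.25 (SE), lower in 2 of 2 esculetin libraries, which did not pass (limma adjusted p = 0.10).

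*Pfkl* (gene ID 18641, chr10:77986947-78009807, minus strand) encodes the liver-type subunit of phosphofructokinase. Its percentiles were 53.5 and 74.7 in the controls and 65.6 and 73.3 with esculetin. The summits compared lay 438 and 431 bp downstream of the start site in the controls, and 3 and 8 bp downstream with esculetin. These percentiles and the coverages below thus compare different places in 1 open region. Summit coverage was 39, 41, 42 and 41 reads before scaling. The scaled log2 difference was 0.21 ± 0.23 (SE; limma adjusted p = 0.62), and it ranged from 0.057 without control replicate 1 to 0.37 without control replicate 2. Both control lists called 2 separate peaks at this promoter, and each esculetin list called 1 wide peak of 719 or 842 bp. The weaker control peaks, at the start site, stood at percentiles 18.7 and 63.3, both below the esculetin values. Their coverages before scaling were 31 and 36.

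*Aldoa* (gene ID 11674, chr7:126795234-126800994, minus strand), the muscle-type aldolase that most cells use, was open at a pair of neighbouring start sites, 126799254 and 126799178, and at neither of its others. Its percentiles were 39.9 and 53.9 in the controls and 74.5 and 74.4 with esculetin (46.9 ± 9.89 against 74.4 ± 0.06, SD, n = 2). Both esculetin libraries lay above both controls, by the widest margin of the 4 genes that did so. Summit coverage was 39, 48, 49 and 47, and the log2 difference was 0.31 ± 0.23 (SE; limma adjusted p = 0.43). It was 0.039 without control replicate 1 and 0.58 without control replicate 2. Control replicate 2 held 2 more peaks inside *Aldoa*, 3569 and 5277 bp from the 5′ end, with coverages of 67 and 68, both above its own *Aldoa* promoter peak. No other library had a peak there. Upstream, a region at chr7:126809048-126809395 was called in both controls only, 4820 bp from the start site of the neighbouring gene *Tlcd3b*.

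*Pgam1* (gene ID 18648, chr19:41911871-41918665, plus strand) encodes phosphoglycerate mutase, which shifts the phosphate of 3-phosphoglycerate. Its promoter peak, over the sequence given above, was its only peak in every library. The percentiles were 89.9 and 64.9 in the controls and 96.2 and 91.3 with esculetin, so both esculetin libraries lay above both controls, though control replicate 1 and esculetin replicate 2 lay close together. Summit coverage was 49 and 37 in the controls and 68 and 58 with esculetin. The log2 difference was 0.72 ± 0.21 (SE), a fold of 1.65, higher in 2 of 2 esculetin libraries (limma adjusted p = 0.036). That call was lost under 2 other scalings and without control replicate 1, control replicate 2 or esculetin replicate 1, with adjusted p from 0.094 to 0.337 and log2 differences from 0.53 to 0.80. It held without esculetin replicate 2 (limma adjusted p = 0.010).

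*Pkm* (gene ID 18746, chr9:59656576-59679372, plus strand) encodes the pyruvate kinase whose M2 form is the one macrophages use. Its promoter, the one without a HIF core in the run shown above, stood at 76.7 and 82.2 in the controls and 89.9 and 88.2 with esculetin (79.5 ± 3.88 against 89.0 ± 1.16, SD, n = 2). It had the highest coverage of the 10 promoters in all 4 libraries, at 62 and 61 in the controls and 74 and 69 with esculetin, and the difference was 0.38 ± 0.20 (SE; limma adjusted p = 0.24), or 0.19 with cyclic loess and 0.23 with quantile scaling. The lncRNA gene *Gm51708*, at 59633996 to 59655906, reaches the edge of the open promoter region of *Pkm*. Inside *Pkm*, control replicate 2 alone had 3 peaks, at 12431, 13980 and 19045 bp from the 5′ end, the first at percentile 92.7 and a coverage of 64.

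*Ldha* (gene ID 16828, chr7:46842274-46855627, plus strand) encodes lactate dehydrogenase A, which turns pyruvate into lactate. Its promoter peak lay at the internal start site 46845804, with summits from -57 to -5, around the last 2 of the core stretches shown above. The percentiles were 78.0 and 76.6 in the controls and 19.9 and 41.5 with esculetin (77.3 ± 0.96 against 30.7 ± 15.3, SD, n = 2), the widest gap of the 10 genes. Summit coverage was 48 and 40 in the controls and 27 and 28 with esculetin, so neither scale gave an overlap. The exact Poisson 95% intervals, 35.4 to 63.6 and 28.6 to 54.5 in the controls and 17.8 to 39.3 and 18.6 to 40.5 with esculetin, did overlap. The log2 difference was -0.51 ± 0.24 (SE), lower in 2 of 2 esculetin libraries, and it did not pass (limma adjusted p = 0.19). Upstream of *Ldha*, regions at chr7:46833313-46833569 and chr7:46838924-46839352 were called in both controls and in neither esculetin library. Esculetin replicate 2 alone had a weak peak at the start site 46847082, at percentile 13.7.

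**Figure D4:**
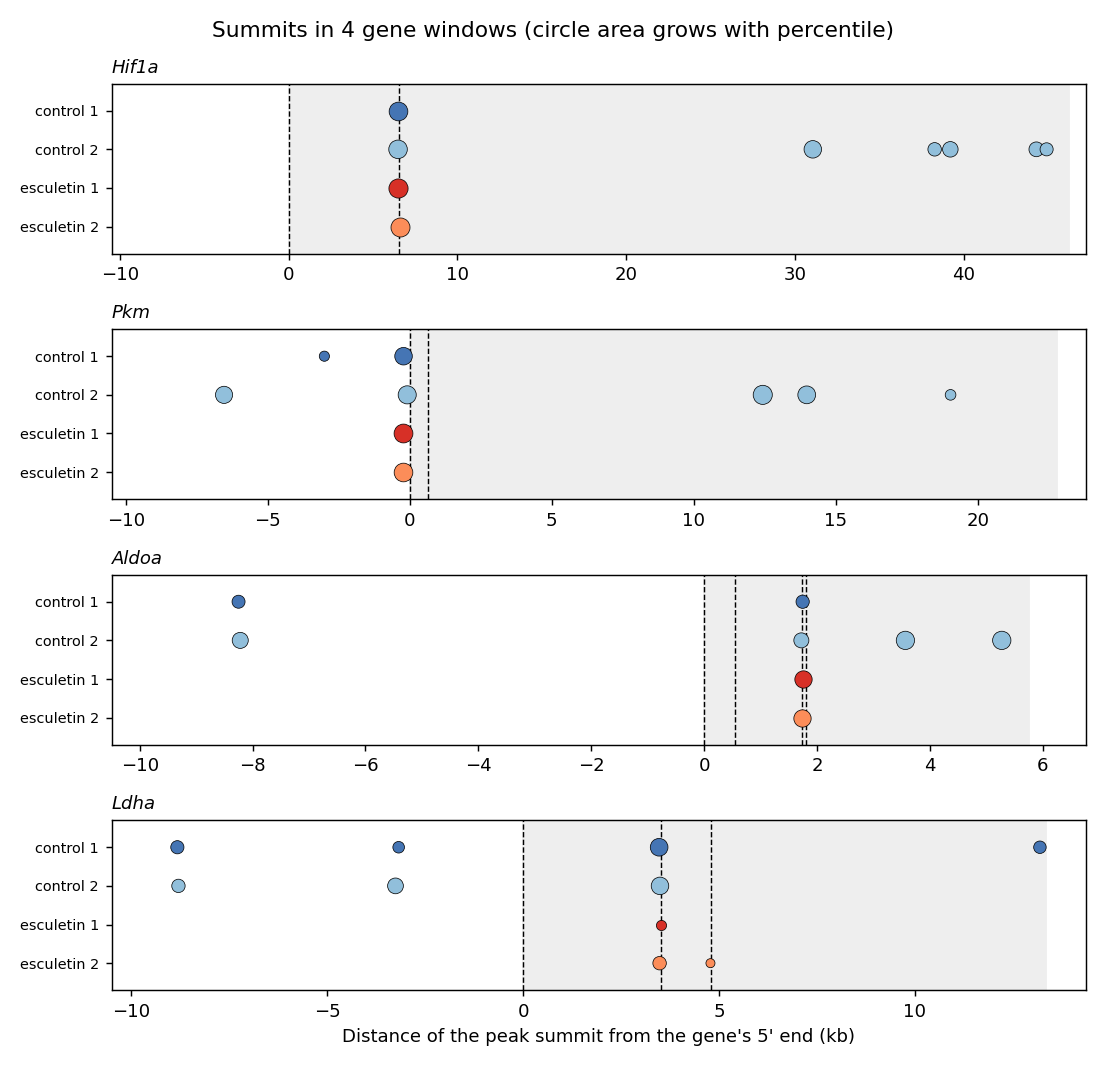
Summits in the windows of *Hif1a*, *Pkm*, *Aldoa* and *Ldha*, by distance from the 5′ end of the gene (x axis, kb), with 1 row per library, grey for the gene, dashed lines for annotated start sites, and circle area growing with percentile. All 4 rows meet at 1 promoter in each gene, the inside peaks of *Hif1a*, *Pkm* and *Aldoa* lie in control replicate 2 alone, and the upstream regions of *Ldha* and *Aldoa* lie in the controls only.

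Merged across libraries, the peaks of the 10 windows formed 42 regions. The regions present in every library numbered 11, made up of 10 promoters and the region inside *Pfkfb3*, and 21.1% of regions in the windows of all coding genes were present in every library. A further 6 regions were called in both controls only, against 12.4% of regions in the windows of all coding genes, and 0 in both esculetin libraries only, against 0.769%. The 6 were the 2 each upstream of *Ldha* and inside *Hk2*, the 1 upstream of *Aldoa* and a region inside *Hk1* at chr10:62299999-62300812. By themselves control replicate 2 had 16 regions and control replicate 1 had 3, against 35.9% and 10.3% over all coding genes. Of the 29 regions away from promoters, 5 were called in both controls only and 16 in control replicate 2 alone, against 14.6% and 52.8% over all coding genes. A missing call is not a test of signal. When each list was reduced to its strongest 8581 peaks, the length of the shortest, 0 regions remained in both controls only. With those equal lists, 7 and 7 of the 10 genes kept a promoter peak in the controls and 10 and 10 with esculetin (two-sided exact permutation p = 0.33). Promoter peaks in the same lists covered 28.8% and 20.2% of all coding genes in the controls and 31.3% and 33.9% with esculetin, so the share over all genes moved in the same direction. Control replicate 1 then lost *Pfkfb3*, *Pfkl* and *Aldoa*, and control replicate 2 lost *Slc2a1*, *Aldoa* and *Pgam1*. The direction of the comparison by presence thus depended on the length of the lists.

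Of 23 other glycolysis genes, 16 and 18 had a promoter peak in the controls and 10 and 14 with esculetin, and 9 in all 4 libraries. The share of all coding genes with a promoter peak, given above, was also lower in both esculetin libraries. Among these 9, *Gapdh* (52.7, 53.3, 53.8 and 86.2 in the order of the libraries above) and *Pfkfb4* had both esculetin percentiles above both controls. *Pfkm*, *Eno1* and *Slc16a1*, a lactate carrier, had both below, and the other 4 overlapped. *Eno1*, the enolase that acts just after phosphoglycerate mutase, stood at 91.4 and 89.5 in the controls and 69.2 and 80.3 with esculetin. *Slc2a3*, *Aldoc*, *Pfkfb1* and *Slc16a3*, the carrier that exports lactate, were called in both controls only. Of regions in the windows of all coding genes, 12.4% had this pattern, a share of regions and not of genes. With the longer control lists, nothing particular to this list is read from these calls. *Tpi1*, triosephosphate isomerase, was the one called in both esculetin libraries only, at percentiles 22.1 and 32.8. *Pgam2* and *Ldhb*, paralogs of members, had no promoter peak in any library.

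Of 8 HIF regulators, 4 and 5 had a promoter peak in the controls and 5 and 5 with esculetin. *Arnt*, the partner of HIF1A, and *Hif1an*, which hydroxylates it, were called in all 4 libraries with overlapping percentiles. *Egln2*, a prolyl hydroxylase that marks HIF1A for degradation, stood at 27.8 and 52.9 in the controls and 62.6 and 73.6 with esculetin. Others went the other way. *Egln1* was called in control replicate 2 alone, at 88.1. *Vhl* was called in control replicate 2 at 81.6 and in the esculetin libraries at 22.1 and 44.0. *Epas1*, which encodes HIF2A, and *Egln3* had no promoter peak in any library. Of 14 HIF targets outside glycolysis, 11, 11, 11 and 10 had a promoter peak in the 4 libraries and 10 in all of them. *Bnip3l* and *P4ha1* had both esculetin percentiles above both controls and *Bhlhe40* had both below, while 7 overlapped. *Car9*, *Adm* and *P4ha2* had no promoter peak in any library. The same orders were found for 15.0% and 29.8% of coding genes, as given above, and nothing particular to these lists is read from them.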

How the data were processed

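ATAC-seq peak lists of 4 libraries were used. The authors' own steps were trimming (Trim-Galore), alignment to mm10 (Bowtie2), removal by Sambamba of PCR duplicates and of reads mapped to several places, and peak calling per library (MACS2). Removing multiply mapped reads lowers signal in sequences with near copies. Peak caller options, including any shift of read ends, are not given in the sources used here. The deposited lists give the fold enrichment of each summit (a linear ratio), its −log10 p and −log10 q, and a score. All of these move with depth, and no read counts were used, so no count model was run.

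Start sites were the 5′ gene end and the starts of a RefSeq promoter table (GRCm38.p6), which covered 79.9% of 21887 coding genes. For genes of the other lists without such starts, either gene end was used. Exons and introns were not assigned. Peaks sharing at least 1 bp were merged into regions. All 10 genes are named. Genes of the glycolysis and HIF lists are named where called in both libraries of 1 group only or in none. Others, chosen after their values were seen, are named as examples (*Arnt*, *Hif1an*, *Egln1*, *Egln2*, *Vhl* and the genes whose groups did not overlap). Of the marker genes only macrophage genes are named, by the same calls or, for *Spi1*, as called in all 4 libraries. Genes and lists were chosen with earlier results of these data known. Two-sided exact permutation tests were run for group differences. Summit coverage was solved as a whole number from the authors' fold and −log10 p in 100.0% of peaks, log2-transformed, centred on the median of shared regions and tested with limma (trend, Benjamini-Hochberg over all regions, threshold 0.05). This fit and the use of internal start sites were chosen after seeing the files. Scripts were tested on simulated data. Versions were limma 3.58.1 on R 4.3.3, and SciPy 1.17.1, NumPy 2.4.6, matplotlib 3.10.9 and pandas 2.3.3 on Python 3.11.15.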

Additional observations from a re-analysis of the deposited data

How the results depend on the processing

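The number of the 10 genes with a promoter peak (esculetin minus control, 0 as reported) was -0.5 with promoters within 500 bp, -0.5 with −log10 q of at least 5, 3.0 with lists of equal length and -1.0 with either gene end as start. With the 5′ end as the only start site, 5 and 6 genes were called in the controls and 5 and 6 with esculetin. The difference in peaks in the windows turned to 0.5 with lists of equal length, and leaving out 1 library gave -24.5 (without control replicate 1) to -8.5 (without control replicate 2). The difference in median percentile turned to -0.54 with promoters within 2 kb and -0.46 with percentiles by fold, and leaving out 1 library gave -2.01 (without esculetin replicate 2) to 4.65. Against the reported 1.32, it was 15.3 with lists of equal length, 11.8 with the 5′ end only and 9.46 with either gene end (exact permutation p = 0.67, 0.33 and 0.33). The 15.3 rests on control medians over the 7 genes kept in each control list. With percentiles taken among promoter peaks only the difference in median percentile was 4.86, and with −log10 q of at least 5 it was 0.27. Regions in both controls only numbered 3 with the gene body alone, 0 with lists of equal length and 6 to 22 with 1 library left out, the 22 without control replicate 1. Regions in both esculetin libraries only numbered 1 with lists of equal length and 0 to 2 with 1 library left out, and regions in all 4 numbered 6 with lists of equal length. The coverage fit called 0 of the 10 promoters with cyclic loess scaling, 0 with quantile scaling, and 0 to 2 with 1 library left out, where 1 library stands alone in its group and is assumed to vary like the other group. For *Slc2a1* the log2 difference turned to -0.095 without esculetin replicate 1, against 0.73 (called) when the other esculetin library was left out. The cause of each change was not tested.

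Over 13 alternatives each, the percentile of *Ldha* stayed lower (-60.0 to -20.5) and that of *Hif1a* higher (3.42 to 25.3) with esculetin. Those of *Aldoa*, *Pgam1* and *Pkm* also stayed higher in every alternative that gave a value. The direction held in 7 of 10 for *Pfkfb3* (-40.0 to 12.5), 10 of 13 for *Hk1*, 12 of 14 for *Slc2a1*, 13 of 14 for *Pfkl* and 14 of 15 for *Hk2*. These counts are no measure of robustness, because many of the alternatives could not change the direction. Changes of the promoter distance or of the window left most of these peaks as they were. Leaving out 1 library cannot reverse groups that do not overlap. With 1 library left out, the log2 coverage difference of *Hif1a* ran from 0.26 to 0.52, that of *Pkm* from 0.25 to 0.50 and that of *Ldha* from -0.56 to -0.46. Replicate numbers did not pair the libraries (correlation of replicate differences 0.0076 over 6181 regions). The numbers are those of the labels, while the peak names inside the esculetin lists carry 2 and 3 for replicates 1 and 2, so the pairing by number is itself uncertain. With the replicate block the difference in peaks was -16.5 (exact sign-flip p = 0.5, the smallest 2 pairs allow), and the coverage fit with the block still called *Pgam1* (limma adjusted p = 0.024). Summit coverages of 21 to 74 reads set the precision.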
